A study of Mus musculus with 32 samples.

Results

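Mettl16, Mettl5, Pcif1 and Zcchc4 are 4 mouse genes that encode RNA adenosine methyltransferases other than the METTL3-METTL14 complex. Their m6A peaks were collected from 16 peak lists by position alone: a peak belonged to a gene when its summit, the base of highest signal, lay inside the gene body of the mm10 genome. By this rule 119 of 496760 peaks belonged to the 4 genes, out of 17098 genes that held at least 1 summit. Pcif1 held 43 peaks, Zcchc4 held 34, Mettl16 held 31 and Mettl5 held 11.

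N6-methyladenosine (m6A) is a methyl mark on adenosines inside RNA molecules, and most of it in messenger RNA is placed by METTL3 together with METTL14. The 4 enzymes described here act elsewhere. METTL16 methylates a spliceosomal small nuclear RNA and hairpins of the Mat2a transcript, METTL5 with its partner TRMT112 methylates the small-subunit ribosomal RNA, ZCCHC4 methylates the large-subunit ribosomal RNA, and PCIF1 adds a methyl group to an adenosine next to the cap, which gives m6Am. A peak on the strand of one of these genes is read here as a signal from RNA of that gene, and a peak on the opposite strand is not. Position and strand alone do not show which transcript a peak came from. Neither kind of peak says anything of what the enzyme does.

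The cells were mouse embryonic stem cells of strain C57BL/6, all grown with LIF at 1000 U/ml, CHIR99021 at 3 µM and PD0325901 at 1 µM, which together keep such cells undifferentiated. RNA fragments bound by an m6A antibody were sequenced (MeRIP-seq) from chromatin-associated RNA depleted of ribosomal RNA (caRNA) and from polyadenylated RNA (mRNA). In each RNA fraction there were cells labelled Mettl14 CKO and Mettl14 Control, and cells labelled Mettl3 CKO and Mettl3 Control, with 2 libraries per group and 8 groups. The series held 32 samples, and the 16 input samples were not used here. CKO commonly stands for conditional knockout. The labels give neither the means of deletion nor its completeness, the number of clones nor whether the 2 libraries of a group came from separate cultures, so p-values measure the spread between libraries, which may be technical.

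The caRNA lists held 37955 to 45241 peaks and the mRNA lists 16537 to 23380. Sequencing depth is unknown, so a gene without a peak can have less methylation, less RNA or less depth, and these cannot be told apart. Of 10 embryonic stem cell marker genes, 9 to 10 held a peak in each caRNA library. In mRNA 8 and 8 did so in Mettl14 CKO cells, against 7 and 8 in their Control cells. In the Mettl3 line of mRNA 7 and 7 did so in CKO cells, against 9 and 9 in Control cells. Pou5f1 held no peak in any CKO library of mRNA and a peak in every Control library. Nanog held none in both Mettl3 CKO libraries and in the first Mettl14 Control library of mRNA. Of 7 feeder fibroblast marker genes, each caRNA library held a peak on 5 and 5 in Mettl14 CKO cells, against 4 and 4 in Mettl14 Control cells, and on 6 and 7 in Mettl3 CKO cells, against 2 and 3 in Mettl3 Control cells. In mRNA the numbers were 4 and 4 in Mettl14 CKO cells, against 1 and 1 in Control cells, and 6 and 6 in Mettl3 CKO cells, against 4 and 6 in Control cells. Their summed peaks were 8 to 11 in CKO and 5 to 7 in Control libraries of caRNA, and 4 to 12 in CKO and 1 to 8 in Control libraries of mRNA, and Col1a1, a collagen gene, held no peak in 1 Mettl3 Control library of caRNA and in both Mettl14 Controls of mRNA. More feeder markers thus held a peak in CKO libraries of 3 comparisons, and the part of this in the results below was not tested. Mettl14 itself held 0 and 0 caRNA peaks in Mettl14 CKO cells, against 1 and 1 in their Control cells, and 1 and 0 mRNA peaks, against 1 and 2. Mettl3 held 1 and 1 caRNA peaks in Mettl3 CKO cells, against 3 and 2 in their Control cells, and 0 and 1 mRNA peaks, against 0 and 0. Neither is a check of the deletion, because a peak can lie outside the deleted part.

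Mettl5 carried 1 recurrent peak at its start. Of its 11 peaks, all on the strand of the gene, 10 had their summits within 5 nt of each other, at chr2:69885462-69885467, which is 148 to 153 nt downstream of the annotated transcript start at position 69885615 on the minus strand. The gene body spans chr2:69871195-69886634 (15440 bp), and the other peak, in the second Control library of the Mettl3 line in caRNA, lay 67.0% along it with a fold enrichment of 3.89. Fold enrichment is the authors' ratio of immunoprecipitate over background for each peak, given here as a description and not compared between lists by a test.

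The start peak of Mettl5 was present in all 8 caRNA libraries. Its fold enrichment there was 8.55 and 8.75 in Mettl14 CKO cells and 7.40 and 6.67 in Mettl14 Control cells. It was 7.66 and 8.29 in Mettl3 CKO cells and 6.98 and 7.23 in Mettl3 Control cells. In each line both CKO values stood above both Control values, an order that 2 libraries a group cannot test (smallest possible exact permutation p = 0.333). In mRNA the peak was present in both Mettl3 CKO libraries and in none of the other 6. The 10 start peaks were 170 to 331 bp wide and lay between the 58.2nd and the 87.0th percentile of fold enrichment in their own lists.

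The RefSeq promoter window of Mettl5 (GRCm38.p6, the mm10 build) reaches into the upstream edge of the merged start peak and stops before the summits. The last stretch of that window is shown because the merged start peak, the most regular of the 4 genes, covers it. Only the start peaks of all Mettl3 libraries and of the second Mettl14 CKO library in caRNA reached this stretch. It lies at chr2:69885566-69885595 on the minus strand and is printed 5′ to 3′, with GGAC, the core of the usual m6A motif, in capitals.
Mettl5 start: agGGACcgcgaGGACcagctagaggcatac
It held 2 GGAC sites, with first bases at 69885593 and 69885584. Of 32851 promoter windows of 300 bases, 65.6% held GGAC on the strand of the gene, so the match is a description of the sequence and not a mapped site.

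Zcchc4 carried its peaks at the other end. The gene spans chr5:52775409-52824666 on the plus strand (49258 bp), no other annotated gene overlaps it, and all 34 peaks were on its own strand. They fell into 4 regions, made by merging overlapping peaks of all lists. The region nearest the gene end (chr5:52824370-52824593) had its median summit 171 nt before the annotated end and was found in 13 libraries. A second region, 884 nt before the end (chr5:52823521-52824011), was found in 8 libraries, and a region 5089 nt before the end (chr5:52819345-52819741) was found in 12. A single peak elsewhere, with a fold enrichment of 2.88, belonged to the first Mettl3 CKO library in caRNA.

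In caRNA, Zcchc4 peaks were missing from CKO cells of 1 line. Mettl14 CKO libraries held 3 and 3 peaks and their Controls 3 and 3, whereas Mettl3 CKO libraries held 1 and 0 peaks, against 3 and 3 in Mettl3 Controls. At the gene end the caRNA fold enrichment was 5.47 and 4.37 in Mettl14 CKO cells and 7.10 and 7.07 in Mettl14 Control cells. Neither Mettl3 CKO library had an end peak, against 8.15 and 6.16 in Mettl3 Control cells. All 3 end-ward regions were therefore retained in the Mettl14 line, meaning present in all 4 libraries of the comparison, and lost in the Mettl3 line, meaning present in both Controls and in neither CKO library. The region 5089 nt before the end had 3.85 and 4.15 in the Mettl3 Controls, and the middle region 3.36 and 2.83.

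In mRNA the end region of Zcchc4 had fold enrichments of 8.09 and 7.95 in Mettl14 CKO cells and 4.51 and 4.97 in Mettl14 Control cells. It had 4.47 in 1 Mettl3 CKO library and no peak in the other, against 6.59 and 7.93 in Mettl3 Control cells. The middle region appeared in mRNA with 2.54 and 1.70 in Mettl14 CKO cells and in no other mRNA library, so it was called gained there, meaning present in both CKO libraries and in neither Control. The mRNA peaks that were missing in the Mettl3 line were thus those of 1 CKO library at the gene end, and of 1 CKO and 1 Control library further upstream. The number of Zcchc4 peaks averaged 2.75 ± 0.463 in the Mettl14 line and 1.5 ± 1.20 in the Mettl3 line (SD, n = 8 libraries each, exact two-sided permutation p = 0.0278, Benjamini-Hochberg adjusted p = 0.163 over 17098 genes). The CKO minus Control difference in Zcchc4 peaks was 0.5 in the Mettl14 line and -1.5 in the Mettl3 line, a difference that did not pass the test across all genes (exact permutation p = 0.0648, adjusted p = 1). That test permuted CKO and Control labels within each fraction and line. Its p thus refers to no CKO effect at all, not to equal effects in both lines.

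**Figure D1:**
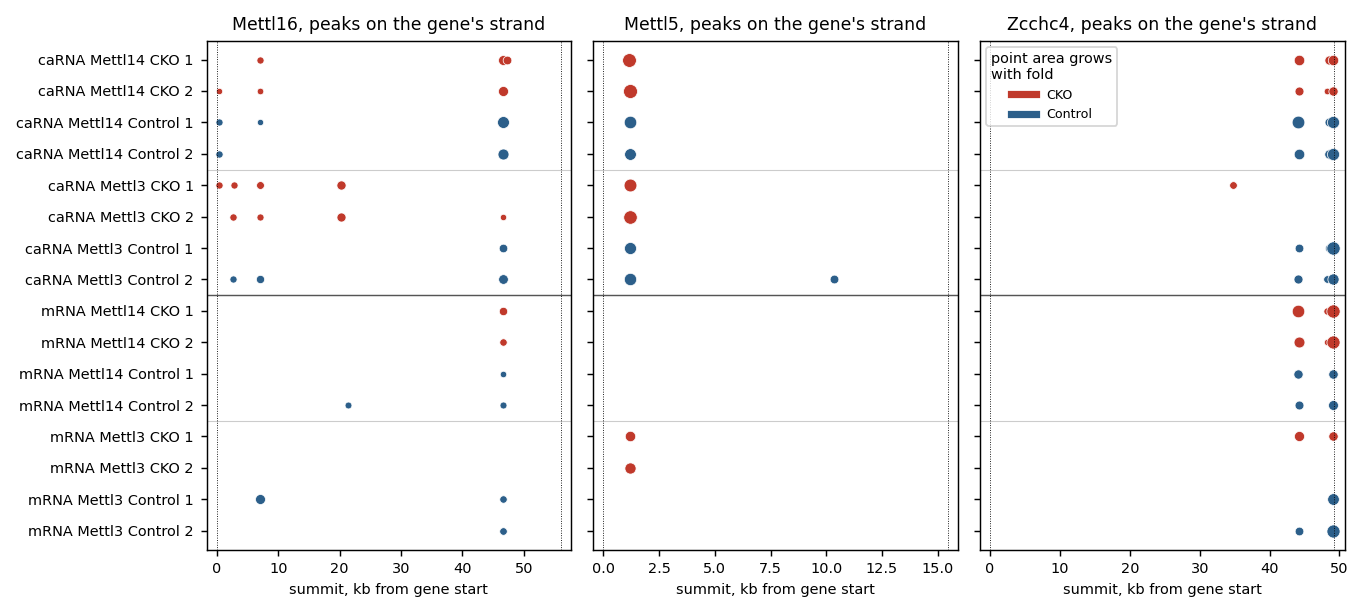
Position of every peak summit of Mettl16, Mettl5 and Zcchc4 in the 16 libraries (rows), in kb from the gene start along the strand of the gene (horizontal axis, dotted lines at the gene ends). Red points are CKO and blue points Control libraries, and the area of a point grows with the authors' fold enrichment. Mettl5 peaks stack near the start, Zcchc4 peaks near the end, and the Zcchc4 end peaks are missing from both Mettl3 CKO libraries in caRNA.

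Mettl16 had the most scattered sense peaks of the 4 genes. The gene spans chr11:74770815-74826855 on the plus strand (56041 bp), a small nucleolar RNA gene lies inside it with no summit over it, and all 31 peaks were on the strand of Mettl16. They formed 7 regions. The main one (chr11:74817086-74817791) had all its summits within 11 nt, 9399 nt before the annotated gene end, and was found in 13 libraries, 7 of caRNA and 6 of mRNA. The other 6 regions were found in 1 to 7 libraries, and 16 of their 18 peaks were in caRNA.

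At the main Mettl16 region the caRNA fold enrichment was 5.02 and 5.13 in Mettl14 CKO cells and 6.83 and 5.97 in Mettl14 Control cells. It was 1.73 in 1 Mettl3 CKO library with no peak in the other, against 3.75 and 4.74 in Mettl3 Control cells. In mRNA it was 3.56 and 2.67 in Mettl14 CKO cells and 1.82 and 2.28 in Mettl14 Control cells. Over both fractions of the Mettl3 line, 3 of the 4 CKO libraries lacked this peak and all 4 Controls had it.

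Nearer its start, Mettl16 held peaks in both Mettl3 CKO libraries of caRNA. A region 20112 to 20138 nt after the annotated start at position 74770863 (chr11:74790901-74791068) was gained, with fold enrichments of 4.31 and 4.20 in CKO cells and no peak in Control cells. A region 6953 to 7008 nt after it (chr11:74777697-74777988) had 3.06 and 2.38 in CKO cells and 3.45 in 1 of the Controls. It was also found in 3 Mettl14 caRNA libraries and, in mRNA, only in 1 library, a Mettl3 Control with 5.05. A region 2648 to 2679 nt after it (chr11:74773405-74773568) had 2.45 and 2.55 in Mettl3 CKO cells and 2.45 in 1 of their Controls, in caRNA alone. A region 305 to 344 nt after it was found in 4 caRNA libraries with fold enrichments of 1.69 to 2.52, between the 0.291st and the 6.98th percentile of their lists. Over all regions, the Mettl3 CKO libraries held 4 and 4 Mettl16 peaks in caRNA, against 1 and 3 in Controls, whereas in mRNA they held 0 and 0, against 2 and 1. Their caRNA lists were also longer than those of the Controls, with 45241 and 41162 peaks against 37955 and 40090.

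The CKO minus Control difference in Mettl16 peaks over both lines was 1.25 in caRNA and -1 in mRNA. The difference between the fractions was 2.25 peaks (exact two-sided permutation p = 0.0139, Benjamini-Hochberg adjusted p = 0.805 over 17098 genes), so it did not pass. For Pcif1 the same difference was -4.25 peaks (exact permutation p = 0.0417, adjusted p = 0.805). For Mettl5 and Zcchc4 it was -0.75 and -1.5 peaks (exact permutation adjusted p = 0.883 and 0.935). In that test 0 genes passed, which is 0.0% of those tested, and 716 genes had an unadjusted p under 0.05. It permuted CKO and Control labels within each fraction and line. Its p thus refers to no CKO effect at all, not to equal effects in both fractions.

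Pcif1 stood apart from the other 3 genes in carrying peaks on both strands. The gene spans chr2:164879368-164891440 on the plus strand (12073 bp). Of its 43 peaks, 15 were on its own strand, 1 in every library except the first Mettl3 CKO library of caRNA. The other 28 were on the opposite strand, in 10 libraries. The 13 antisense summits inside another annotated gene were in 2 long noncoding RNA genes of the minus strand, 9 in 4930445K14Rik, which runs across the Pcif1 start, and 4 in Gm46775, which lies near the Pcif1 end. The other 15 antisense summits lay in no other annotated gene. Beyond the Pcif1 end lies Zfp335 (chr2:164891882-164912585), a protein-coding gene of the minus strand that is transcribed toward Pcif1. Whether its RNA reaches Pcif1 was not tested.

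The sense peak of Pcif1 was at the end of the gene (chr2:164890939-164891463, median summit 226 nt before the annotated end). Its summits fell into 2 clusters separated by 26 nt, 6 at 164891174 to 164891185 and 9 at 164891211 to 164891228. Both clusters lie next to GGAC on the Pcif1 strand. The sequences under them are shown because every one of the 15 summits was within 18 nt of a GGAC in them. They are read from the RefSeq promoter window of Gm46775 (GRCm38.p6), turned to the plus strand, 5′ to 3′, with GGAC in capitals. The first lies at chr2:164891154-164891183 and the second at chr2:164891198-164891227.
Pcif1 end, lower cluster: tcacagactgctaGGACtcagcctcagggc
Pcif1 end, upper cluster: gcagcaGGACttgagctgccagGGACatag
The GGAC of the lower cluster begins at 164891167, and all 6 summits of that cluster lay 7 to 18 nt from it. The upper stretch holds 2 sites, beginning at 164891204 and 164891220, and 1 summit lay exactly on position 164891220. Neither cluster belonged to 1 genotype: it varied between replicates of the same group, as in Mettl14 CKO mRNA with 1 summit in each cluster. With 65.6% of promoter windows of 300 bases holding GGAC on the gene strand, these matches describe where the summits lie and were not tested as sites.

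The fold enrichment of the Pcif1 end peak in caRNA was 4.60 and 3.13 in Mettl14 CKO cells and 8.0 and 8.51 in Mettl14 Control cells. It was 3.90 in 1 Mettl3 CKO library with no peak in the other, against 8.74 and 5.71 in Mettl3 Control cells. Each caRNA CKO library with a peak had the lower value in its line, and within their own lists the Mettl14 peaks stood at the 40.5th and 13.3rd percentile in CKO cells and at the 78.4th and 80.4th in Control cells. In mRNA the order was the opposite in the Mettl14 line, with 9.49 and 8.34 in CKO cells and 4.05 and 5.92 in Control cells, at the 82.8th and 77.4th percentile of their lists in CKO cells and the 40.1st and 72.8th in Control cells. In the Mettl3 line of mRNA the groups overlapped, with 4.93 and 3.13 in CKO cells and 4.03 and 4.29 in Control cells. The Zcchc4 end region showed the same arrangement of values in the Mettl14 line, lower in CKO cells in caRNA and higher in CKO cells in mRNA. So did the main Mettl16 region, the Zcchc4 region 5089 nt before the end and the best peak of Rrp8, a gene read below. The Mettl5 start peak was higher in CKO cells in caRNA and absent from mRNA of that line. The Mettl14 Control lists were the shortest of mRNA (16537 and 17738 peaks), and the part of list length in this arrangement was not tested.

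**Figure D2:**
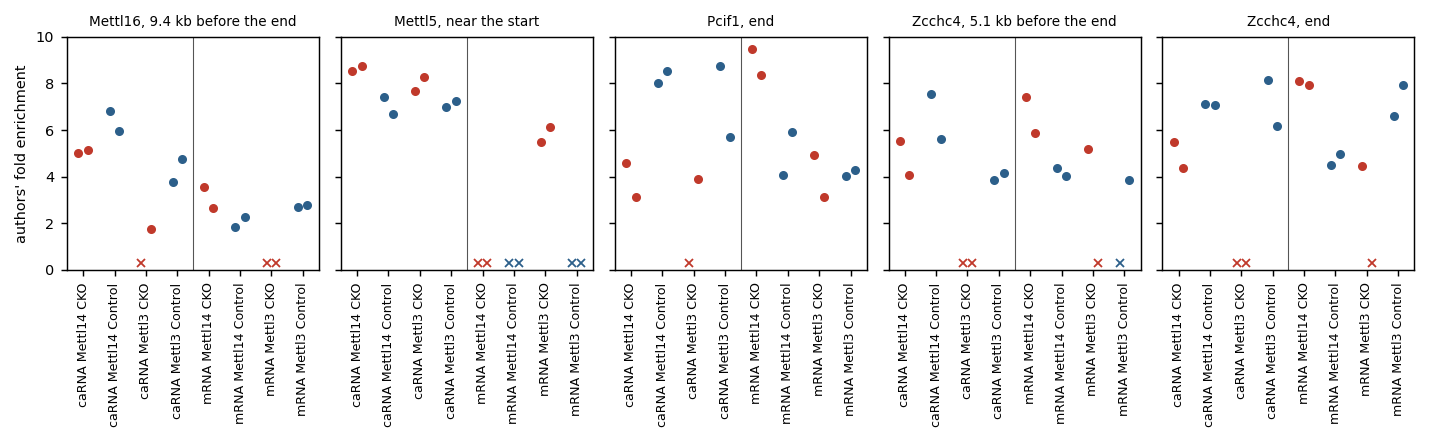
Authors' fold enrichment of the recurrent peak of each gene (vertical axis, 1 point per library), with caRNA groups left and mRNA groups right of the grey line. Red points are CKO and blue points Control libraries, and a cross at the bottom marks a library with no peak in the region. The Mettl5 start peak is present in all 8 caRNA libraries and in 2 mRNA libraries, and the Pcif1 end peak reaches 9.49 and 8.34 in mRNA of Mettl14 CKO cells.

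Of the 28 antisense peaks on Pcif1, 20 were in caRNA of Control cells. In caRNA, Mettl14 CKO libraries held 2 and 2 antisense peaks, against 8 and 6 in Mettl14 Controls. Mettl3 CKO libraries held 0 and 0, against 3 and 3 in Mettl3 Controls. In both lines, every CKO library held fewer than every Control library. In mRNA no library held more than 1. Over both lines the caRNA count averaged 1.0 ± 1.15 in CKO cells and 5.0 ± 2.45 in Control cells (SD, n = 4 libraries each).

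The antisense peaks that CKO libraries lacked lay in separate stretches of Pcif1. Antisense regions in the second part of the gene (chr2:164886362-164886843, chr2:164887720-164888057 and chr2:164891038-164891486) were found in both Mettl14 Controls of caRNA and in no other library. The Mettl3 Controls thus lacked them as the CKO libraries did. Their fold enrichments in the Mettl14 Controls were 4.17 and 4.06, 3.06 and 2.79, and 3.17 and 3.30.

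A stretch before the middle of the gene held peaks in CKO libraries of 1 line and not of the other. In the Mettl14 line chr2:164883259-164884461 was retained as 1 merged region. It had 2.69 and 4.55 in CKO cells and 5.35 and 4.76 in Control cells for the strongest peak of each library. The CKO peaks covered only chr2:164883938-164884367 and chr2:164883945-164884233, so the first part of the stretch lacked a CKO peak in both lines. A peak of the second Mettl14 Control (chr2:164883259-164884433) joined the parts into 1 region. In the Mettl3 line the same stretch held 2 regions, chr2:164883259-164883512 and chr2:164883948-164884702, found in both Controls and in neither CKO library. Their Control values were 5.05 and 5.18 in the first and 4.50 and 2.81 in the second. The next stretch, chr2:164884959-164886004, was found only in the 4 Mettl14 libraries of caRNA, with 3.39 and 4.96 in CKO cells and 4.88 and 4.83 in Control cells. Whether the lines differ in these stretches was not tested region by region.

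At the Pcif1 start itself the antisense peak was not lost. The merged minus-strand region over the start held a peak in all 8 caRNA libraries and in 5 of mRNA. In the second Mettl14 Control and the first Mettl3 CKO library of mRNA the peak began inside the gene, at 164879459 and 164879446. In 7 of the 13 libraries the summit lay 63 to 103 nt outside the gene, so those peaks were not counted above. Both Mettl3 CKO libraries of caRNA were among them, with 5.31 and 4.71 at summits outside, against 9.75 and 7.16 at summits inside in the Controls. Counting any overlap in place of the summit gave a CKO minus Control difference of -1.75 Pcif1 peaks in place of -2.12.

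The sequence printed for the Pcif1 start is shown because antisense summits lay inside it. They were those of both Mettl3 Controls of caRNA and of the first Mettl14 CKO library of mRNA. This sequence is the minus strand of the RefSeq promoter window at chr2:164879360-164879389, 5′ to 3′, with GGAC in capitals. The second is at the start of 4930445K14Rik (chr2:164883437-164883466, minus strand), shown because 3 antisense summits lay 74 to 76 nt downstream of that transcript start.
Pcif1 start, antisense: gtgtcccgggccgGGACtccgcgctgcgca
4930445K14Rik start: aagccccaggcaaacatGGACtctattaac
Each held 1 GGAC, beginning at 164879376 and at 164883449. Both GGAC sites are followed by T and lie on the strand opposite to Pcif1, which is the strand of 4930445K14Rik. Of all promoter windows of 300 bases, 26.1% held GGACT on the strand of the gene and 45.5% on either strand. The printed stretches are shorter than such windows.

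**Figure D3:**
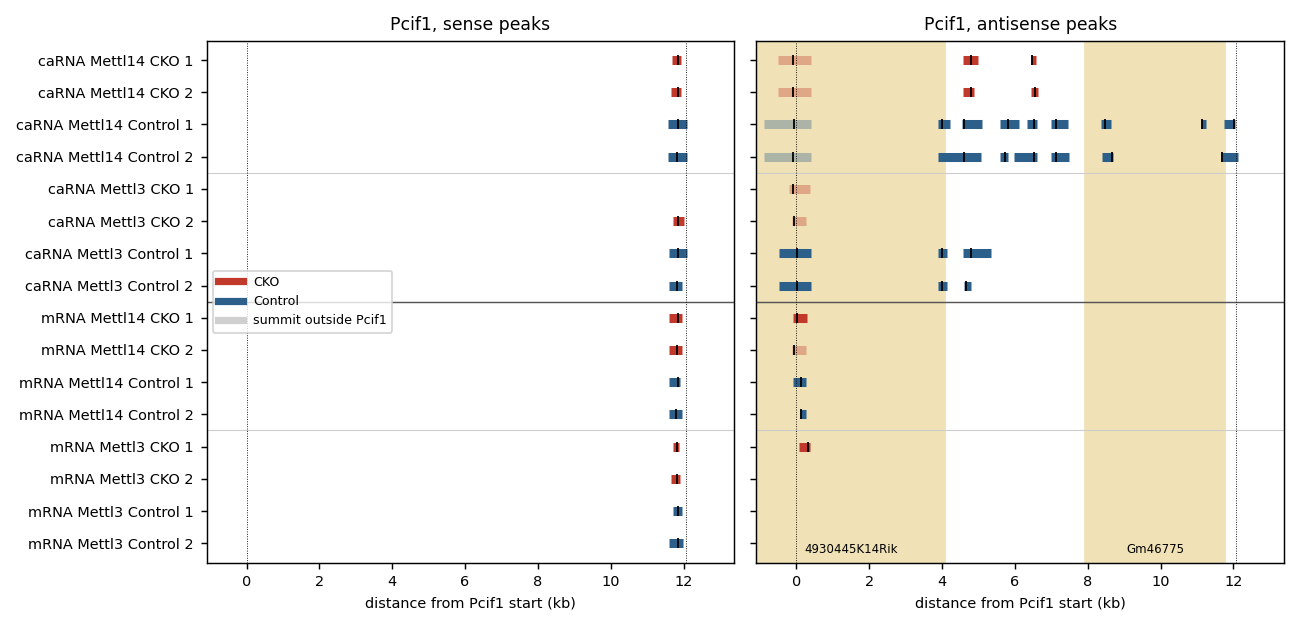
Peaks on Pcif1 by strand in the 16 libraries (rows), in kb from the Pcif1 start (horizontal axis, dotted lines at the gene ends), with sense peaks left and antisense peaks right. Bars are peaks, red for CKO and blue for Control, black ticks are summits, pale bars are peaks whose summit lies outside Pcif1, and shaded spans are the 2 long noncoding RNA genes of the minus strand. The 2 Mettl14 Control libraries of caRNA hold 8 and 6 antisense peaks along the gene, and the Mettl3 CKO libraries of caRNA hold only pale bars at the start.

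Antisense summits were also more frequent over the whole caRNA lists in Controls. Among summits in protein-coding genes, 10.1% and 9.98% were antisense in Mettl14 CKO cells, against 12.8% and 12.7% in Mettl14 Control cells, and 7.98% and 7.43% in Mettl3 CKO cells, against 10.1% and 10.4% in Mettl3 Control cells. The share of sense summits in the last 10% of the gene body, where the Zcchc4 and Pcif1 end peaks lie, was 16.9% and 17.1% in Mettl3 CKO cells and 23.7% and 23.0% in Mettl3 Control cells of caRNA. The part of these list-wide differences in the results for Pcif1 and Zcchc4 was not tested.

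Over all libraries Pcif1 averaged 1.62 ± 1.06 peaks in CKO and 3.75 ± 2.92 in Control libraries (SD, n = 8 each), and the difference did not pass the test across all genes (exact two-sided permutation p = 0.0417, Benjamini-Hochberg adjusted p = 0.644 over 17098 genes). Counting antisense peaks alone, the means were 0.75 ± 0.886 in CKO and 2.75 ± 2.92 in Control libraries, with the same unadjusted exact permutation p of 0.0417 (adjusted p = 1 over 5106 genes with an antisense peak). For Mettl16, Mettl5 and Zcchc4 the CKO minus Control differences were 0.125, 0.125 and -0.5 peaks (exact permutation p of 1, 1 and 0.417, adjusted p = 1 for each). The exact test called 0 of 17098 genes (0.0%) between genotypes, with 942 genes (5.51%) at an unadjusted p under 0.05. The smallest p the design allows is 0.00154.

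**Figure D4:**
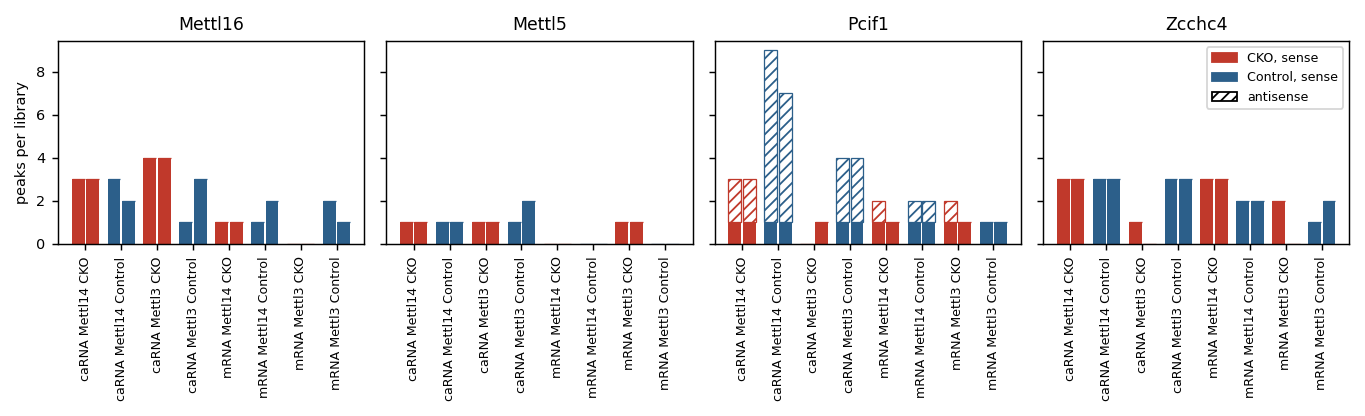
Number of peaks per library (vertical axis) on each gene, with 2 bars for the 2 libraries of each group. Red bars are CKO and blue bars Control, filled for peaks on the strand of the gene and hatched for antisense peaks. The tallest bars are the 2 Mettl14 Control libraries of caRNA on Pcif1, with 9 and 7 peaks, of which 8 and 6 are antisense.

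Read by gene, Mettl16 was lost and Mettl5 was gained in mRNA of the Mettl3 line, where 3.41% of 12077 genes with a peak were lost and 4.11% gained. Pcif1 was retained there, as were 72.3% of the genes, and Zcchc4 had a peak in 1 CKO library and in both Controls. In caRNA of the Mettl3 line 0 of the 4 genes were lost (5.0% of 14721) and 0 gained (3.99%). Mettl16 and Mettl5 were retained there, as were 72.1% of the genes, whereas Pcif1 and Zcchc4 had a peak in 1 CKO library and in both Controls. In caRNA of the Mettl14 line all 4 genes were retained, as were 74.4% of 14117 genes, while 4.85% were lost and 2.61% gained. In mRNA of the Mettl14 line 3 were retained, as were 69.4% of 11365 genes, and Mettl5 had no peak, while 1.32% of the genes were lost and 12.1% gained.

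Read by region, caRNA of the Mettl3 line had the most losses, 5 of 15 regions, where 8.91% of all 59521 regions were lost. They were 3 of Zcchc4 and 2 antisense on Pcif1. There was 1 gain, in Mettl16, where 9.67% were gained, and 2 regions were retained, where 40% were. In caRNA of the Mettl14 line 3 of 15 regions were lost, all antisense on Pcif1, where 10.2% of 54426 were lost. There 8 were retained (47.3% of all) and 0 gained (5.22%). In mRNA of the Mettl14 line 0 of 7 regions were lost (3.29% of 27173), 1 was gained, in Zcchc4 (19.1%), and 5 were retained (47.4%). In mRNA of the Mettl3 line 1 of 7 was lost, in Mettl16 (6.33% of 30249), 1 gained, in Mettl5 (6.2%), and 1 retained, the Pcif1 end region (50% of all). Regions of 1 gene share its transcript and are not separate replicates.

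Between the RNA fractions, Mettl16 and Mettl5 had more peaks in caRNA. Mettl16 averaged 2.875 ± 0.991 peaks in caRNA and 1.0 ± 0.756 in mRNA (SD, n = 8 libraries each), and the difference passed the exact two-sided permutation test (p = 0.0123, Benjamini-Hochberg adjusted p = 0.0407). Mettl5 averaged 1.125 ± 0.354 in caRNA and 0.25 ± 0.463 in mRNA, which also passed (exact permutation p = 0.00926, adjusted p = 0.0309). In the same direction 30.7% of the 17098 genes passed, and 2.16% in the opposite one, with 42.2% at an unadjusted p under 0.05, while the caRNA lists were the longer ones. Counted per 10000 peaks of the list, 15.4% of the genes passed with more peaks in caRNA and 20.7% with fewer, so the prevailing direction depends on this scaling. On that scale the Mettl16 and Mettl5 differences no longer passed (exact permutation adjusted p = 0.338 and 0.0647). The Mettl16 call also ended without any 1 of 8 libraries (exact permutation adjusted p up to 0.0703) and the Mettl5 call without either Mettl3 Control library of mRNA (up to 0.0556).

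Pcif1 averaged 3.875 ± 2.95 peaks in caRNA and 1.5 ± 0.535 in mRNA, which did not pass (exact permutation adjusted p = 0.0700), though it passed when any overlap with the gene was counted in place of the summit (a difference of 3.0 peaks, exact permutation adjusted p = 0.0306). That difference lay on the antisense strand, with 3.0 ± 2.78 antisense peaks in caRNA and 0.5 ± 0.535 in mRNA (exact permutation adjusted p = 0.119). Its sense peak was found in 7 caRNA and 8 mRNA libraries. Zcchc4 averaged 2.375 ± 1.19 peaks in caRNA and 1.875 ± 0.991 in mRNA (exact permutation adjusted p = 0.462), and per 10000 peaks of the list the difference turned to -0.304.

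Between the lines, Pcif1 had 3.625 ± 2.83 peaks in the Mettl14 line and 1.75 ± 1.49 in the Mettl3 line (SD, n = 8 libraries each, exact permutation p = 0.0139, adjusted p = 0.125). Mettl5 had 0.5 ± 0.535 in the Mettl14 line and 0.875 ± 0.641 in the Mettl3 line (exact permutation adjusted p = 0.388), and Mettl16 differed by 0.125 peaks (adjusted p = 1). The exact test called 0 of 17098 genes between lines (0.0%), with 3288 genes (19.2%) at an unadjusted p under 0.05. Counted per 10000 peaks of the list it called 1109 genes, and Pcif1 and Zcchc4 still missed (exact permutation adjusted p = 0.0649 and 0.0690).

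Genes whose products work with or beside the 4 enzymes were read in the same tests, in which 30.7% of all genes passed with more peaks in caRNA. Of 3 partners and substrates, Mat2b, a regulatory subunit of the enzyme that makes the methyl donor, passed between fractions, with 1.0 peaks in caRNA and 0.25 in mRNA (exact permutation adjusted p = 0.0424). Mat2a, the catalytic subunit and the messenger RNA that METTL16 methylates, averaged 2.0 peaks in caRNA and 1.375 in mRNA (exact permutation adjusted p = 0.353) and was retained in all 4 comparisons. Trmt112, the METTL5 partner, averaged 2.375 in caRNA and 1.25 in mRNA (exact permutation adjusted p = 0.0700). Of the 5 genes of cap synthesis and methylation 3 passed, all higher in caRNA: Rngtt, the capping enzyme, with 9.375 peaks in caRNA and 3.375 in mRNA, Cmtr1, a cap ribose methyltransferase, and Rnmt, the cap guanine methyltransferase.

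Of the 8 genes of ribosomal RNA methylation 6 passed, all higher in caRNA. Dimt1, a dimethyltransferase of the small-subunit ribosomal RNA, held 1 peak in each caRNA library and 0 in every mRNA library. Emg1, a pseudouridine methyltransferase, averaged 2.5 in caRNA and 0 in mRNA. Nop2, Rrp8, Bud23 and Fbl were the others. Of 14 tested genes of the m6A machinery 5 passed, all higher in caRNA, among them Mettl3 with 2.25 peaks in caRNA and 0.125 in mRNA and Fto, a demethylase, with 12.8 in caRNA and 3.0 in mRNA. Of 15 tested genes of the METTL family 3 passed, Mettl15, Mettl25 and Mettl17. The median caRNA minus mRNA difference was 0.75 peaks for the partners, 1.375 for cap methylation, 1.375 for ribosomal RNA methylation, 0.812 for the m6A machinery and 0.5 for the METTL family, against 0.5 over all genes. Between genotypes and between lines the exact test passed 0 genes of these lists.

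The counts of these lists changed with the scaling. Per 10000 peaks of the list, 3 ribosomal RNA methylation genes (Dimt1, Emg1 and Nop2) passed with more peaks in caRNA and 1 with fewer, against 1 and 2 genes of cap methylation. Of the m6A machinery 2 passed with more peaks in caRNA (Mettl3 and Fto) and 8 with fewer, and of the METTL family 1 (Mettl17) and 6. Of the partners 0 passed on this scale. Between lines, 2 genes of the m6A machinery, 2 of cap methylation, 1 of ribosomal RNA methylation and 2 of the METTL family passed on this scale.

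Over the 47 listed genes and 4 comparisons there were 4 cases of a lost and 6 of a gained gene. In caRNA of the Mettl14 line Mettl14, Ramac and Nsun5 were lost and 0 genes gained, where 4.85% and 2.61% of all genes were. In caRNA of the Mettl3 line Mettl21a was lost and Mettl14 gained, where 5.0% and 3.99% were. In mRNA of the Mettl14 line Bud23, Fbl and Mettl22 were gained and 0 genes lost, where 12.1% and 1.32% were. In mRNA of the Mettl3 line Mat2b and Mettl26 were gained, as Mettl5 was, and 0 genes lost, where 4.11% and 3.41% were. Mat2b had fold enrichments of 4.26 and 4.31 in those CKO cells and no peak in Control cells.

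The genes most like each of the 4 across the libraries were ranked by Pearson correlation of log2(1 + fold enrichment of the best peak) over the 16 libraries, among 16005 genes with a peak in at least 2 lists. They included Smoc1 (r = 0.957) and Ints7 (0.957) for Mettl16, and were Usp19 (0.995), Wipf1 (0.995) and Mtbp (0.994) for Mettl5. For Pcif1 they were Gm10589 (0.940), Josd1 (0.938) and Tmed8 (0.931), and for Zcchc4 Gm51776 (0.957), Ubr1 (0.940) and Depdc7 (0.933). Such correlations are a description. They rest on which libraries hold a peak at all, and all genes share the libraries and their depth.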

How the data were processed

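Per the submitters' processing notes, CASAVA, Trimmomatic 0.38, HISAT2 2.1.0, SAMtools 1.9 and the mm10 build were used. No label names the peak caller or its settings. For each immunoprecipitation library the authors deposited a list of peaks called by strand, with replicates not pooled. Each deposited peak has a fold enrichment (a ratio), −log10 p and −log10 q values, and a summit offset. The deposited score of a peak is the whole part of 10 times its −log10 q and was not used.

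Here 43 spike-in peaks were removed. Summits were assigned to RefSeq gene bodies (GRCm38.p6, 49997 genes), with strand from RefSeq's promoter table (27025 genes). Peaks overlapping by at least 1 bp on the same strand were merged into regions. The number of summits per gene was tested with an exact two-sided permutation test over 16 libraries (1296 label arrangements within the strata of the other factors), Benjamini-Hochberg adjusted over 17098 genes at 0.05. The test was tried on simulated data. Named were the 4 genes, genes of the lists and the 3 genes most alike, of which 1 is not reported here. These genes and lists were chosen with earlier results of these data known. Replicate numbers were not used to pair samples in the main tests. Within-group deviations of same-numbered CKO and Control libraries correlated between -0.0687 and 0.0266. Pairing between RNA fractions or between lines was not checked in this way. No 2 lists shared identical peaks. Python 3.11.15, numpy 2.4.6 and pandas 2.3.3 were used. The antisense-only tests, the scaled counts of the gene lists and the tests of differences between lines or fractions in the CKO effect were chosen after seeing the data. The last of these permuted CKO and Control labels within each fraction and line, and so do not test equal CKO effects. Alternatives varied the peaks, the gene assignment, the strand, the scaling and the libraries used.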

Additional observations from a re-analysis of the deposited data

Results flagged for a closer look

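In the Mettl3 line, Mettl16 peaks moved in opposite directions in the 2 RNA fractions. In caRNA both CKO libraries held more of them, 4 and 4 against 1 and 3 in Control cells, a mean difference of 2.0 peaks. In mRNA both CKO libraries held fewer, 0 and 0 against 2 and 1 in Control cells. The difference was not tested within that line. Over both lines it was 2.25 peaks (exact permutation p = 0.0139, Benjamini-Hochberg adjusted p = 0.805 over 17098 genes). The main region near the gene end was nonetheless missing from 1 of the 2 CKO libraries in caRNA and from both in mRNA. The CKO lists of caRNA in this line were longer (45241 and 41162 peaks) than the Control lists (37955 and 40090). The part of list length was not tested. Peaks of the regions nearest the start lay at or below the 6.98th percentile of their lists, those of the gained region at the 37.3rd to 44.4th.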

How the results depend on the processing

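Peak numbers depend on list length, peak strength and the strand counted. The caRNA minus mRNA test called 5622 genes, 5383 to 5722 when any 1 library was left out, 484 with the 10000 strongest peaks per list, 0 with presence of a peak, 2894 with the replicate block and 267 on the antisense strand. Per 10000 peaks of the list it called 2625 genes with more and 3540 with fewer peaks in caRNA, against 5253 and 369. The line test called 1109 genes per 10000 peaks of the list and 0 otherwise; the genotype test called 0 under each setting, with 72 to 2304 genes at an unadjusted exact p under 0.05 when all libraries were kept. The Mettl16 and Mettl5 caRNA calls ended with the 10000 strongest peaks, presence, the per-10000 scaling and the replicate block (exact permutation adjusted p = 0.0926 for both). Without 1 library the adjusted p was 0.0252 to 0.0703 for Mettl16, above 0.05 without Mettl3 Control 2 of either fraction, Mettl14 Control 1 of either fraction or any 1 Mettl14 CKO library. For Mettl5 it was 0.0298 to 0.0556, above 0.05 without either Mettl3 Control of mRNA. For Pcif1 the call was gained with any overlap (3.0 peaks). Signs turned for Mettl16 between genotypes with the strongest peaks (-0.375), presence (-0.25) and scaling (-0.126), and without Mettl3 Control 1 of caRNA between genotypes and lines (-0.125; the range without 1 library was -0.125 to 0.375 for both). They turned for Pcif1 between fractions with the strongest peaks, presence and the gene's own strand (-0.125 each), and for Zcchc4 with the strongest peaks (-0.75) and scaling (-0.304). With the strongest peaks 2 of the 4 genes were lost in each fraction of the Mettl3 line (0 to 1 in caRNA and 1 to 2 in mRNA without 1 library), and of the regions 0 were lost in caRNA of the Mettl14 line, 2 lost and 0 gained in caRNA of the Mettl3 line, 0 gained in mRNA of the Mettl14 line and 2 lost in mRNA of the Mettl3 line. With regions joined by summits within 100 nt, 1 was gained in caRNA of the Mettl14 line and 3 lost in caRNA of the Mettl3 line. With −log10 q of at least 5, 0 were gained in mRNA of the Mettl14 line. The cause of these changes was not tested. Exons were not used here.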
